A study of Mus musculus with 8 samples.

Results

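The genes described here are 199 Zfp genes that tumor-associated macrophages (TAMs) of B16F10 melanomas expressed in 2 control mice and 3 mice given thiostrepton. Zfp is the mouse gene symbol prefix for zinc finger protein. The members were chosen by their measured counts: a symbol of Zfp followed by a digit, and 50 or more counts in each of 5 libraries, DMSO 1, DMSO 2, I.P. 2, I.P. 3 and I.P. 4. Of 23413 gene symbols in the count table, 360 had such a name. Zfp36, Zfp36l1, Zfp36l2 and Zfp36l3 were left out because they encode proteins of another kind, which bind AU-rich RNA, and 199 of the remaining 356 passed the count rule. The same rule without the name was passed by 9014 other genes, which serve here for comparison.

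RNA-seq counts came from TAMs sorted from the tumors of 8 mice, 1 library per mouse. All mice were male C57BL/6, 8 to 10 weeks old, and bore B16F10 cells, a mouse melanoma line. The vehicle DMSO (2 mice) was compared with thiostrepton, a thiopeptide antibiotic that inhibits the transcription factor FOXM1 and the proteasome, by intraperitoneal injection (I.P., 4 mice), and with thiostrepton injected subcutaneously beside the tumor (S.C., called IS in the labels, 2 mice). Dosing was on days 6 and 12 and cells were sorted on day 18 as CD45+F4/80+CD11b+Gr-1-. The S.C. dose was 20 mg/kg, and the sources used here do not give which of the study's I.P. doses these mice had, or the route of DMSO. The mice had no genetic change, and the host immune system was intact.

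Most Zfp proteins bind DNA through arrays of C2H2 zinc fingers, short repeats in which a pair of cysteines and a pair of histidines hold a zinc ion. Many also carry a KRAB domain at their N-terminal end, which binds the co-repressor TRIM28 (KAP1) and so brings the histone methyltransferase SETDB1 and heterochromatin protein to the bound site. KRAB zinc finger genes are mostly arranged in clusters that arose by gene duplication, and several are known to silence endogenous retroviruses or to keep genomic imprints. Of the 199 members, 112 had a KRAB match and 87 had none. The members held a median of 10 C2H2 matches, with a range of 0 to 37. KRAB members had a median of 12 matches and members without KRAB a median of 7.

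The first standard finger of 6 KRAB members is printed here because near-identical fingers decide how well reads can be assigned to one gene, and because the first 4 of these genes fell to almost no reads in S.C. mice while the last 2 did not. These 6 were chosen after their values were seen. Sequences are from GENCODE vM21 transcripts (GRCm38, the same build as mm10), 5′ to 3′ on the coding strand, with the codons of the zinc-binding cysteines and histidines in capitals. Each is coding sequence, and its place was chr17:33019249-33019329 on the minus strand for Zfp763, chr17:33003557-33003637 on the plus strand for Zfp952, chr10:82059893-82059973 on the plus strand for Zfp873, chr10:81720155-81720235 on the plus strand for Zfp433, chr17:22851538-22851618 on the minus strand for Zfp945 and chr5:143244616-143244696 on the plus strand for Zfp12.
Zfp763: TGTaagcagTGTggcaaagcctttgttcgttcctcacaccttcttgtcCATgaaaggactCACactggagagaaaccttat
Zfp952: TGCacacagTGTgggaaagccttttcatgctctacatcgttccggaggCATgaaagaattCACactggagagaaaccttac
Zfp873: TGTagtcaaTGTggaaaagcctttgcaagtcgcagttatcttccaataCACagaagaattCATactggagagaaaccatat
Zfp433: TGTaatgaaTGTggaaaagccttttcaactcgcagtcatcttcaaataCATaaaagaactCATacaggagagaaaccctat
Zfp945: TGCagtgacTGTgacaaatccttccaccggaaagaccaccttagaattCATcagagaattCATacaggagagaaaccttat
Zfp12: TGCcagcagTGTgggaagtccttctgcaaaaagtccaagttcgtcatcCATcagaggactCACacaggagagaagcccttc

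Over these 81 bases, Zfp873 and Zfp433, which lie in one cluster on chromosome 10, were 86.4% identical. Zfp763 and Zfp952, neighbours on chromosome 17, were 70.4% identical, and Zfp873 and Zfp12 were 50.6% identical. Over the whole transcript, 87.1% of the 31-base stretches of Zfp433 also occurred in another gene, against 7.2% for Zfp873, 3.9% for Zfp952, 1.2% for Zfp763, 1.7% for Zfp945 and 2.7% for Zfp12. The counts of Zfp433 are therefore uncertain as counts of that gene. Among all members the median share was 1.7%, and 28 members had 20% or more.

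The libraries held 14127506 to 17577466 counts, so 3 counts, taken as the floor of detection, corresponded to 0.169 to 0.218 CPM (counts scaled to the same total per library, with TMM factors). Intervals and floors of this kind cover counting error only. The number of genes with any count was lowest in S.C. 1 (12766), S.C. 2 (13083) and I.P. 1 (13412) and was 13617 to 14622 in the other 5 libraries. These 3 libraries also had the largest share of counts in their 10 most abundant genes (16% to 19.7%, against 11.9% to 15.9%). The numbers in the sample titles place I.P. 1 next to the S.C. mice, and what these numbers stand for is not given. All 8 of the 9 listed macrophage markers that the table holds under the symbol used were detected in every library, with a summed level of 23950 to 29810 CPM in the DMSO and I.P. libraries and 34170 and 37090 CPM in S.C. 1 and S.C. 2. Neutrophil markers summed to 265 and 438 CPM in S.C. 1 and S.C. 2 and to 76.1 to 169 CPM elsewhere, with 143 CPM in I.P. 1, and 6 to 9 of the 9 in the table were detected in each library. Melanoma markers, 5 of 5 detected everywhere, summed to 2936 CPM in S.C. 1, 676 CPM in S.C. 2 and 427 to 1645 CPM in the others. Cytotoxic lymphocyte markers summed to 42.1 and 22.3 CPM in the S.C. libraries and to 0.851 to 16.6 CPM in the others (3 to 8 of 9 detected). The part of these cell types, of library complexity and of I.P. 1 in the results on Zfp genes was not tested. In sorted bulk samples, fewer expressing cells and less RNA per cell cannot be told apart.

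The summed level of the members was 3515 and 3217 CPM under DMSO, 2992 and 3562 CPM after S.C. dosing, 3090 CPM in I.P. 1 and 3196 to 3484 CPM in I.P. 2 to I.P. 4, so on this scale the S.C. values lay on both sides of the DMSO values. As a share of all counts, without TMM, the members held 0.367% and 0.345% under DMSO, 0.281% and 0.332% after S.C. dosing, 0.289% in I.P. 1 and 0.322% to 0.365% in the other I.P. mice, so both S.C. values were then below both DMSO values. Single members, in contrast, spread widely in 3 libraries. On log2 CPM relative to the mean of the DMSO mice, the interquartile range of the members was 1.61 in S.C. 1, 1.62 in S.C. 2 and 1.38 in I.P. 1, and 0.39, 0.40 and 0.62 in I.P. 2, I.P. 3 and I.P. 4. For the other 9014 genes the same range was 0.99, 0.84 and 1.08 in S.C. 1, S.C. 2 and I.P. 1 and 0.35 to 0.66 in I.P. 2 to I.P. 4. The rule asks for counts in the 5 libraries that spread least, and so holds their range down, for members and other genes alike.

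**Figure D1:**
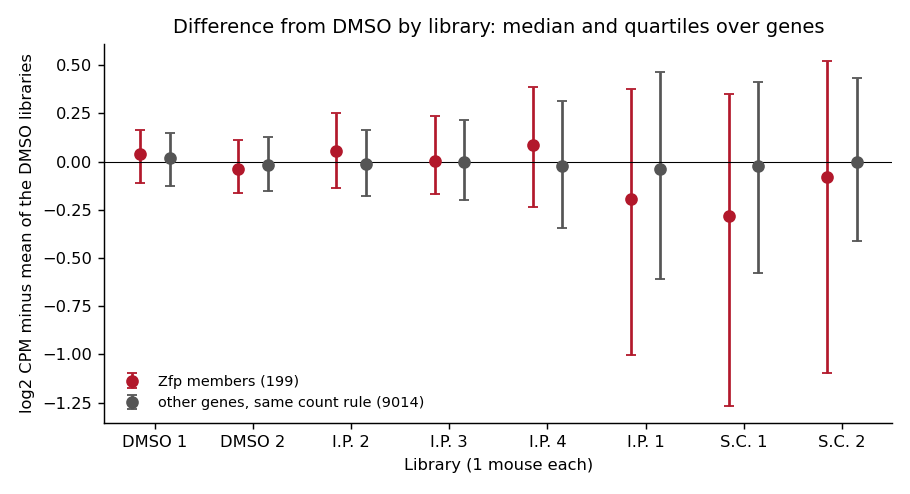
Log2 CPM of each gene minus its mean in the 2 DMSO mice (y axis) by library (x axis); points are medians over genes and bars run from the first to the third quartile, for the 199 members (red) and 9014 other genes (grey). The bars of the members reach down to -1.26 in S.C. 1 and -1.10 in S.C. 2, and to about -1 in I.P. 1, and the medians stay within 0.29 of 0.

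The median member differed from DMSO by -0.28 in S.C. 1, -0.08 in S.C. 2 and -0.20 in I.P. 1 (log2), and by 0.00 to 0.09 in I.P. 2 to I.P. 4. For the other genes these medians were -0.02, -0.00 and -0.04 in the first 3 libraries. A lower median follows in part from the rule, which asks for counts under DMSO and not in these 3. When Zfp genes were instead chosen for 50 or more counts in each of S.C. 1, S.C. 2 and I.P. 1 (120 genes), the medians turned to 0.05, 0.21 and 0.08. Among the 79 members with 200 or more DMSO counts on average, the median was -0.34 in S.C. 1, 0.16 in S.C. 2 and -0.22 in I.P. 1. The direction of the median thus turned in all 3 libraries with the libraries in which counts were asked for, and in S.C. 2 also with level.

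A minority of members was left with almost no reads. In S.C. 1, 18 members (9.05%) were at 3 or fewer counts, 10 of them at 0, and in S.C. 2 there were 25 (12.6%), 8 of them at 0. In I.P. 1 there were 6 (3.02%), 3 of them at 0. The other genes under the same rule reached this floor in 1.19%, 1.08% and 0.155% of cases. With a looser bound, 24, 31 and 8 members were under 10% of their DMSO level in S.C. 1, S.C. 2 and I.P. 1 (12.1%, 15.6% and 4.02%, against 2.10%, 1.93% and 0.588% of the other genes). Members could not be at the floor in the 5 libraries of the rule. Under a rule that treats all libraries alike, with a mean of 50 or more counts over the other 7 libraries, 9.38% of Zfp genes were at 3 or fewer counts in S.C. 1, 12.5% in S.C. 2 and 3.20% in I.P. 1, and none of 218 to 223 in any of DMSO 1, DMSO 2, I.P. 2, I.P. 3 and I.P. 4. All other genes gave 1.95%, 2.21% and 0.554% in those 3 libraries and 0.0307% to 0.164% in the other 5.

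Below 200 counts, the shares of members at the floor were above those of other genes at the same level in all 3 libraries. Among members with a DMSO mean of 50 to 100 counts, 8 of 40 were at 3 or fewer counts in S.C. 1, 12 in S.C. 2 and 3 in I.P. 1, against 10.1%, 10.1% and 1.69% of 474 other genes of that level. From 100 to 200 counts, the members gave 11.2%, 13.8% and 3.75% (n = 80) and the other genes 3.49%, 2.81% and 0.304% (n = 1317). From 200 to 400 counts, 1 of 48 members was at the floor in S.C. 1, 1 in S.C. 2 and 0 in I.P. 1, against 0.644%, 0.483% and 0.0537% of 1862 other genes. At 400 counts or more, 1 of 31 members in S.C. 2 and none in S.C. 1 or I.P. 1 were at the floor. Of 5361 other genes at that level, 0.0187% were in S.C. 1, 0.056% in S.C. 2 and 0.0187% in I.P. 1. These shares are descriptions, with no test, since genes are not replicates of a mouse.

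KRAB members made up most of those at the floor. Of the 35 members with 3 or fewer counts in S.C. 1, S.C. 2 or I.P. 1, 30 had a KRAB match (85.7%), against 82 of the other 164. The 35 were also lower in level, with a median of 6.41 CPM in DMSO mice against 11.5 CPM, and had shorter transcripts, with a median of 2909 against 3506 bases. Their share of stretches found in other genes had medians of 2.0% and 1.65%, and 7 of the 35 against 21 of the 164 had 20% or more. Within the range of 100 to 200 counts, 15.4% and 19.2% of 52 KRAB members were at the floor in S.C. 1 and S.C. 2, against 3.57% in both libraries (1 of 28) for members without KRAB, while in I.P. 1 the shares were 3.85% and 3.57%. From 200 to 400 counts in S.C. 1 none of 22 KRAB members and 1 of 26 without KRAB were at the floor. In S.C. 2 it was 1 of the 22 and 0 of the 26, and in I.P. 1 none of either. From 50 to 100 counts the KRAB shares in S.C. 1 and S.C. 2 were 27.6% and 34.5% of 29. Those without KRAB were 0 of 11 and 18.2%. In I.P. 1 at that level the shares were 10.3% with KRAB and 0% without. The groups are small, and how reads of related genes were divided was not tested.

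**Figure D2:**
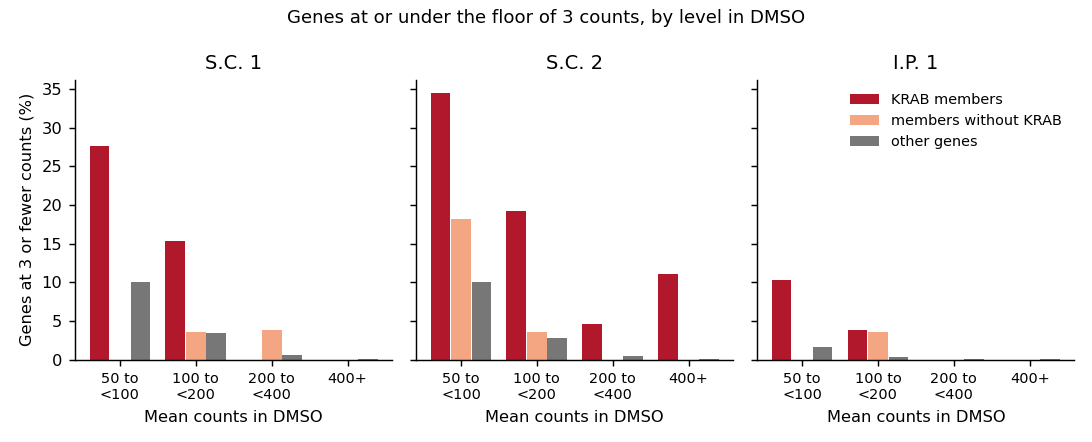
Percentage of genes at 3 or fewer counts (y axis) by mean count under DMSO (x axis), in S.C. 1, S.C. 2 and I.P. 1, for KRAB members, members without KRAB and other genes that met the same rule. The shares fall with level, and from 100 to under 200 counts the KRAB members stand at 15.4%, 19.2% and 3.85%. The single tall bar at 400 counts or more in S.C. 2 is 1 gene of 9.

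The 2 S.C. mice lost partly different genes. Of the members at the floor, 8 were shared between S.C. 1 and S.C. 2, which is 44.4% of the 18 in S.C. 1 and 32.0% of the 25 in S.C. 2. The shared genes were Zfp429, Zfp60, Zfp707, Zfp763, Zfp810, Zfp873, Zfp874a and Zfp952. At 0 counts, 2 members were shared, Zfp763 and Zfp873, of 10 and 8. No member was at the floor in I.P. 1 alone: 3 of its 6 were shared with S.C. 1 (Zfp146, Zfp59 and Zfp763) and 4 with S.C. 2 (Zfp398, Zfp54, Zfp58 and Zfp763). Only Zfp763 was at the floor in all 3 of these libraries.

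Counts of members after S.C. dosing were far apart from each other. They differed by more than 4-fold between S.C. 1 and S.C. 2 for 58 of 199 members (29.1%), against 10.1% of the other genes. Between DMSO 1 and DMSO 2, and between any 2 of I.P. 2, I.P. 3 and I.P. 4, no member differed by as much, in part because of the rule. The median absolute difference was 1.08 (log2) between the S.C. mice and 0.29 between the DMSO mice. Between I.P. 1 and each of I.P. 2 to I.P. 4, 16 to 18 members differed by more than 4-fold.

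**Figure D3:**
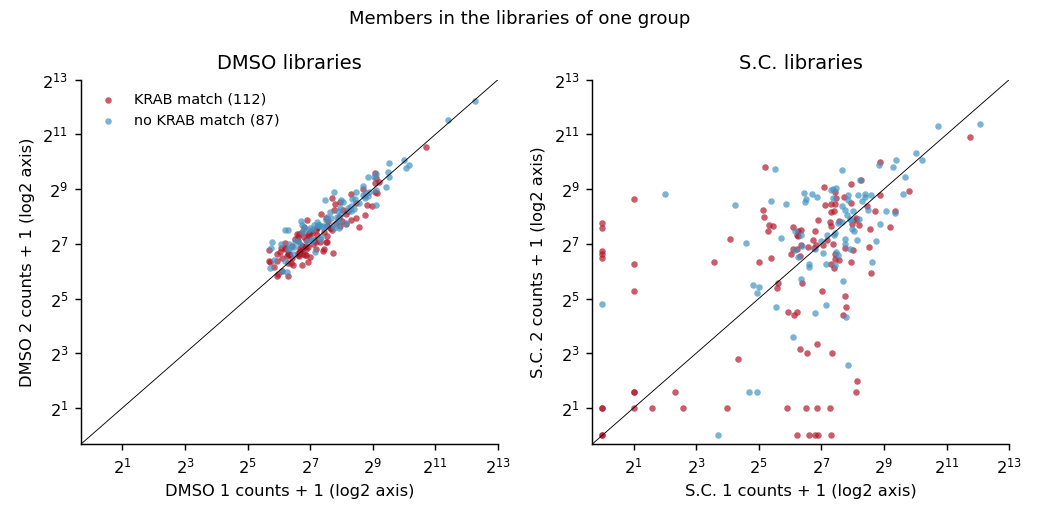
Counts plus 1 of each member in DMSO 1 against DMSO 2 (left) and in S.C. 1 against S.C. 2 (right), on log2 axes with the line of equality; red, KRAB match, and blue, none. Members lie near the line under DMSO, where the rule sets their lower bound, and 58 of 199 are over 4-fold apart after S.C. dosing.

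Zfp763, a KRAB zinc finger of 588 residues with 13 finger matches on chromosome 17 (33016863 to 33033402, minus strand), had the lowest ratio of all members. It had 60 and 82 counts under DMSO, 87, 106 and 81 in I.P. 2, I.P. 3 and I.P. 4, and 0 in I.P. 1, S.C. 1 and S.C. 2. At its DMSO level of 4.39 ± 0.452 CPM (SD, n = 2), 65.2 counts would have been found in S.C. 1, so it was at least 21.7-fold lower there, at least 20.1-fold lower in S.C. 2 and at least 23.0-fold lower in I.P. 1, taking 3 counts per library as the floor. The 3 libraries at 0 did not overlap the other 5, which the rule fixes for a member with no count in these 3.

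Zfp873, a KRAB zinc finger with 17 finger matches on chromosome 10 (82048123 to 82064745, plus strand), had 120 and 118 counts under DMSO and 0 in both S.C. mice, at least 37.0-fold and 34.1-fold lower. In I.P. 1 it had 132 counts, above both DMSO mice in counts, and in I.P. 2 to I.P. 4 it had 79, 88 and 128. The I.P. mice overlapped the DMSO mice. The S.C. mice lay below all of them, which the rule fixes at counts this low for every library but I.P. 1. This gene was not among the 10 with the lowest ratio over the 3 libraries and was named after its values were seen.

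Zfp952, a KRAB gene beside Zfp763 on chromosome 17 (32993129 to 33005457, plus strand), had 96 and 136 counts under DMSO, 45 in I.P. 1, 106, 155 and 137 in I.P. 2 to I.P. 4, and 0 and 1 after S.C. dosing. Its S.C. counts stood far below every other library, and I.P. 1 was the next lowest. For the libraries other than I.P. 1 the rule fixes such a gap. Zfp433 had 284 and 269 counts under DMSO, 90 in I.P. 1, 254, 252 and 145 in the other I.P. mice, and 4 and 2 after S.C. dosing, which made it the member with the lowest unadjusted P in S.C. against DMSO (log2 fold change -6.35 ± 0.79 SE, adjusted p = 0.533, edgeR quasi-likelihood test, n = 2 and 2).

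A further 4 KRAB genes among the 10 lowest were nearly absent in both S.C. mice and not in I.P. 1. Zfp429 on chromosome 13 had 85 and 89 counts under DMSO, 35 in I.P. 1, 112 to 132 in the other I.P. mice, and 1 in each S.C. mouse. Its neighbour Zfp874a had 77 and 97, then 70 in I.P. 1, 89 to 106 in the other I.P. mice, and 1 and 2 after S.C. dosing. Zfp810 on chromosome 9 had 117 and 111, then 64 in I.P. 1, 70 to 146 in the others, and 2 and 1 after S.C. dosing. In all 3 genes the S.C. counts lay below every other library, which the rule fixes for all but I.P. 1, and I.P. 1 was the next lowest. Zfp60 on chromosome 7 had 66 and 113 counts under DMSO, 51 in I.P. 1, 92 to 100 in the others, and 0 and 1 after S.C. dosing. Of these genes, Zfp429 shared 40.0% of its 31-base stretches with other genes, Zfp60 and Zfp874a each 13.1%, and Zfp810 0.4%.

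The remaining 3 of the 10 lowest had no KRAB match and moved in degrees. Zfp146 had 80 and 125 counts under DMSO, 52, 94 and 59 in I.P. 2 to I.P. 4, 0 in I.P. 1 and S.C. 1, and 27 in S.C. 2. Zfp768 had 105 and 170 counts under DMSO, 61 in I.P. 1, 92 to 170 in the other I.P. mice, 30 in S.C. 1 and 2 in S.C. 2. Zfp280b had 128 and 191 under DMSO, 46 in I.P. 1, 88 to 169 in the other I.P. mice, 31 in S.C. 1 and 42 in S.C. 2. For each of the 3 genes, I.P. 1, S.C. 1 and S.C. 2 were the lowest libraries, without overlap with the other 5. Over all members, 22 of 199 (11.1%) were lower without overlap in these 3 libraries, and 10 (5.03%) higher, against 5.15% and 5.02% of the 11680 genes tested in S.C. against DMSO. The rule held the members up in the 5 libraries, so nothing is read from the first of these shares.

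**Figure D4:**
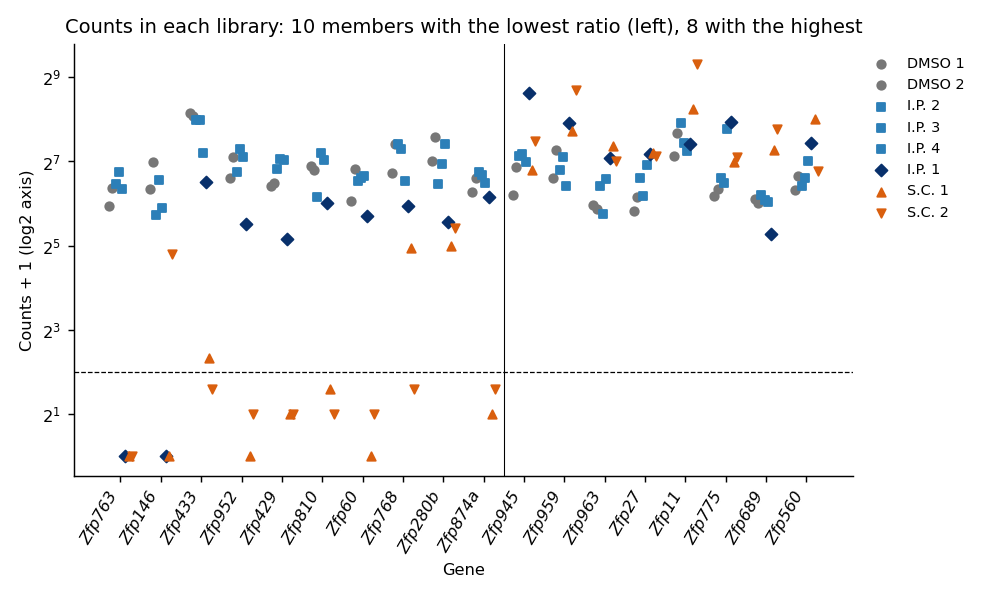
Counts plus 1 in each library (y axis, log2 scale) for the 10 members with the lowest and the 8 with the highest ratio of S.C. 1, S.C. 2 and I.P. 1 to DMSO (x axis); each symbol is 1 mouse and the dashed line marks 3 counts. S.C. counts of Zfp763, Zfp952, Zfp429, Zfp810, Zfp60 and Zfp874a lie below the line, at 0 to 2, and the DMSO counts of those genes run from 60 to 136.

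Other members dropped out in 1 S.C. mouse alone, also at higher levels; these genes were named after their values were seen. Zfp90, a KRAB zinc finger, had 541 and 597 counts under DMSO, 588 to 694 in the 4 I.P. mice, 279 in S.C. 1 and 3 in S.C. 2. Zfp367, with no KRAB match, had 380 and 358 counts under DMSO, 74 in I.P. 1, 329 to 376 in the other I.P. mice, 3 in S.C. 1 and 451 in S.C. 2. The 2 genes thus stood at the floor in opposite S.C. mice. Zfp54 had 101 and 114 counts under DMSO and 119 in S.C. 1, and 0 in S.C. 2 and I.P. 1. Zfp40 had 84 and 121 counts under DMSO, 190 in S.C. 2 and 0 in S.C. 1. None of these 4 genes was called in S.C. against DMSO mice.

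The 8 highest ratios lay nearer to 1 than the lowest did. Zfp27, a KRAB zinc finger with 21 finger matches, had 56 and 70 counts under DMSO, 143 in I.P. 1, 97, 72 and 120 in I.P. 2 to I.P. 4, and 145 and 139 after S.C. dosing. Zfp963 had 62 and 58 under DMSO, 135 in I.P. 1, 53 to 95 in the other I.P. mice, and 165 and 127 after S.C. dosing. In both genes I.P. 1, S.C. 1 and S.C. 2 were above the other 5 libraries. Zfp959 had 96 and 153 counts under DMSO, 239 in I.P. 1, 84 to 136 in the others, and 210 and 416 after S.C. dosing. Zfp560 had 79 and 99, then 172 in I.P. 1, 84 to 127 in the others, and 255 and 108 after S.C. dosing.

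Zfp945 was highest in I.P. 1, with 391 counts, against 73 and 115 under DMSO, 125 to 144 in the other I.P. mice and 110 and 178 after S.C. dosing. Zfp775 had 246 counts in I.P. 1, 216 in I.P. 4, 96 and 89 in I.P. 2 and I.P. 3, 72 and 81 under DMSO, and 126 and 137 after S.C. dosing. Zfp11 and Zfp689 were high after S.C. dosing and not in I.P. 1. Zfp11 had 302 and 640 counts after S.C. dosing, 140 and 203 under DMSO, and 151 to 239 in the 4 I.P. mice. Zfp689 had 153 and 219 after S.C. dosing, 68 and 64 under DMSO, 38 in I.P. 1 and 65 to 73 in the other I.P. mice.

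By the study's criterion for differential expression, a 2-fold or larger difference with P under 0.05 before adjustment (here by edgeR's quasi-likelihood test), 14 of the 199 members were lower in S.C. than in DMSO mice and 3 were higher. The background was 2.77% of 11680 genes lower and 2.29% higher. Of the 14 lower members, 13 were KRAB genes (Zfp810, Zfp772, Zfp60, Zfp873, Zfp87, Zfp874a, Zfp707, Zfp433, Zfp930, Zfp429, Zfp763, Zfp952 and Zfp606) and 1 was not (Zfp280b). The 3 higher were Zfp689, Zfp959 and Zfp11. Since the DMSO counts chose the members, nothing is read from the count of lower members against the background. No member had an adjusted p under 0.05 in this test, with 17 at an unadjusted P under 0.05 (632 of all 11680 genes tested). DESeq2 and edgeR's likelihood ratio test each gave 10 members with an adjusted p under 0.05. Over all genes tested, 0 passed adjustment in the first test, 107 by DESeq2 and 179 by the likelihood ratio test. The rule bears on these counts of members too, so nothing is read from them. The counts of lower and higher members depended on single mice, as did the counts over all genes tested. Leaving out a mouse left 1 in its group, so only medians are given. The members' median log2 fold change was -0.16 without DMSO 1 and -0.27 without DMSO 2. It was -0.11 without S.C. 1 and -0.41 without S.C. 2. For all genes tested the median was 0.04, 0.06, -0.06 and -0.06 in the same order.

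Median log2 fold change of the members in this comparison was -0.21, and 124 of the 199 were below 0. For all genes tested the median was 0.02, with 5658 of 11680 below 0. For the 9014 other genes under the same rule it was -0.01, with 4600 below 0. In CPM, 46 members (23.1%) lay below both DMSO mice in both S.C. mice and 31 (15.6%) above, against 17.2% and 17.1% of all genes tested. Of the other genes under the same rule, 16.9% lay below and 15.9% above. The rule, which asks for counts under DMSO and not after S.C. dosing, lowers the members' values in part. Among the 3 higher members, the log2 fold change was 1.64 ± 0.55 (SE) for Zfp11 (adjusted p = 0.812), 1.64 ± 0.63 for Zfp689 (adjusted p = 0.901) and 1.51 ± 0.59 for Zfp959 (adjusted p = 0.902). For Zfp11 and Zfp689 both S.C. counts were above those of the other 6 libraries, while Zfp959 had 239 counts in I.P. 1, above its count of 210 in S.C. 1.

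In I.P. against DMSO mice, none of the 199 members was lower by the same criterion and 1, Zfp318, was higher (background 0.468% lower and 1.53% higher of 12174 genes). Zfp318, a large nuclear protein known for its part in IgD expression in B cells, had 57 and 83 counts under DMSO and 212, 98, 148 and 217 in I.P. 1 to I.P. 4 (log2 fold change 1.22, adjusted p = 0.980). The DMSO counts were below those of all 4 I.P. mice, and the S.C. mice had 46 and 25. This was the only member with an unadjusted P under 0.05, also by DESeq2 and by the likelihood ratio test, and none passed after adjustment by any of the 3. Over all genes tested, 0 passed adjustment by edgeR's quasi-likelihood test, 19 by DESeq2 and 10 by the likelihood ratio test. The median member changed by -0.02 (log2) with all 4 I.P. mice. I.P. 1 by itself was at the floor for 6 members, whereas I.P. 2, I.P. 3 and I.P. 4 met the rule by choice.

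In S.C. against I.P. mice, 18 members were lower and 6 higher (background 4.64% and 2.41% of 12206 genes). The rule again used 3 of the 4 I.P. mice. None had an adjusted p under 0.05 in edgeR's quasi-likelihood test, with 25 at an unadjusted P under 0.05 (1049 of all genes tested). By DESeq2 and by the likelihood ratio test 14 members each had one. Over all genes tested, 0, 234 and 265 passed adjustment by these 3 tests. Without I.P. 1 the counts were 19 lower and 4 higher, against 548 and 374 of all genes tested. Leaving out an S.C. mouse left 1 in that group, so only medians are given. The members' median log2 fold change was -0.11 without S.C. 1 and -0.33 without S.C. 2. For all genes tested it was -0.09 and -0.08. With both S.C. mice these medians were -0.12 for the members and 0.02 for all genes. The comparisons share mice, so their lists are not independent of each other.

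The 5 most abundant members kept high counts in every library. Zfp706, a small protein with a single finger match, had the highest level: 4975 and 4831 counts under DMSO, 2553 in I.P. 1, 3666 to 4345 in the other I.P. mice, and 4299 and 2689 after S.C. dosing. Zfp207 (BuGZ), which binds BUB3 and works in spindle assembly and splicing, had 2703 and 2965 under DMSO, 2730 to 3097 in the 4 I.P. mice, and 1706 and 2509 after S.C. dosing. Zfp12, a KRAB gene, was higher in the 3 libraries that spread: 1663 and 1477 under DMSO, 1312 to 1853 in I.P. 2 to I.P. 4, 3012 in I.P. 1, and 3477 and 1932 after S.C. dosing. Zfp259 (ZPR1, without a C2H2 match) had 1022 to 1131 counts in all libraries but S.C. 2, which had 1287. Zfp106, an RNA-binding protein needed for motor neuron upkeep, had 1131 and 947 counts under DMSO, 815 to 1550 in the I.P. mice, and 664 and 1057 after S.C. dosing. None of the 5 was called in any comparison.

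Of 21 Zfp genes listed for a known role, 17 were members, and none of these 17 was called lower or higher, or had an unadjusted P under 0.05, in S.C. against DMSO mice (edgeR quasi-likelihood test). At the background of 2.77% lower and 2.29% higher, a list of 17 can hold none, so nothing is read from this. Several regulate silencing or imprinting. Zfp568, a KRAB repressor of a placental Igf2 promoter, had 68 and 89 counts under DMSO, 187 in I.P. 1, 81 to 135 in the other I.P. mice, 59 in S.C. 1 and 1 in S.C. 2. Zfp809, which silences proviruses of the murine leukemia virus type, had 184 and 133 counts under DMSO, 156 to 206 in I.P. 2 to I.P. 4, 50 in I.P. 1, and 81 and 123 after S.C. dosing. In CPM, S.C. 2 (8.96) lay above DMSO 2 (7.64), so the groups overlapped. Zfp932, which silences other endogenous retroviruses, had 545 and 670 counts under DMSO, 356 in I.P. 1, 588 in S.C. 1 and 193 in S.C. 2. Zfp445, a guardian of imprints, had 450 and 342 under DMSO, 136 in S.C. 1 and 538 in S.C. 2. Zfp57, the other main imprint guardian, was no member and had 0 counts in every library but S.C. 1, where it had 3.

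Among members of the same list with other roles, Zfp281 and Zfp263 disagreed between the S.C. mice, and Zfp143, Zfp91 and Zfp622 did so less. Zfp281, a transcription factor of pluripotent cells, had 413 and 438 counts under DMSO, 245 in I.P. 1, 422 to 569 in the others, 45 in S.C. 1 and 860 in S.C. 2. Zfp263 had 544 and 498 under DMSO, 200 in S.C. 1 and 827 in S.C. 2. Zfp143, which binds many promoters, was lower in both S.C. mice (238 and 241 counts) and I.P. 1 (183) than under DMSO (408 and 551) and I.P. 2 to I.P. 4 (338 to 408). Zfp91, a ubiquitin ligase of the noncanonical NF-kB pathway, had 948 counts in I.P. 1, against 354 and 472 under DMSO, 507 to 658 in the other I.P. mice, and 360 and 297 after S.C. dosing. Zfp622, which takes part in maturation of the large ribosomal subunit, was higher in I.P. 1 (1356) and the S.C. mice (1176 and 1069) than in the others (724 to 785).

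The machinery through which KRAB proteins act was described by a fixed list. Of 20 listed co-repressor and silencing genes 19 were in the table, none was at 3 or fewer counts in any library, and none was called in any of the 3 comparisons by edgeR's quasi-likelihood test, with 0 of 19 at an unadjusted P under 0.05 in each. Other genes reached the floor in 1.19% of cases or fewer and were called at the backgrounds given above, so nothing is read from these counts of 0. Under 10% of the DMSO level there was 1 of 19 in S.C. 1 (Atf7ip) and 1 of 19 in I.P. 1 (Uhrf1), against 2.10% and 0.588% of other genes. More than 2-fold below DMSO were 8 of 19 in S.C. 1 (42.1%), 1 in S.C. 2 (5.26%) and 5 in I.P. 1 (26.3%). Other genes gave 14.7%, 9.51% and 15.1%, and the members 28.6%, 26.1% and 25.6%. Trim28, the KRAB co-repressor, had 573 and 607 counts under DMSO, 566 to 770 in the I.P. mice, 890 in S.C. 1 and 375 in S.C. 2. Setdb1, the methyltransferase it recruits, had 358 and 510 under DMSO, 394 to 496 in the I.P. mice, and 129 and 358 after S.C. dosing. Single values stood out among the others. Uhrf1, which guides DNA methylation upkeep, had 92 counts in I.P. 1 against 1017 to 1389 in the DMSO and other I.P. mice, and 406 and 807 after S.C. dosing. Atf7ip, a partner of SETDB1, had 23 counts in S.C. 1 and 331 in S.C. 2, with 309 and 236 under DMSO. The median of the 19 genes relative to DMSO was -0.12 in S.C. 1, -0.22 in S.C. 2 and -0.43 in I.P. 1 (log2).

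Of the 35 members at the floor in S.C. 1, S.C. 2 or I.P. 1, 11 lay on chromosome 7, 9 on chromosome 17 and 5 on chromosome 13. These chromosomes held 41, 32 and 14 of the 199 members. Chromosome 8 held 17 members with 2 at the floor, and chromosome 5 held 15 with 1. Where a run of 4 or more members had gaps of at most 250 kb, it was taken as a cluster, which gave 11 clusters with 62 members, 56 of them KRAB. Of these 62, 19 were at the floor in at least 1 of the 3 libraries, against 16 of the 137 outside. The clusters named here were not chosen by a rule. On chromosome 13, 7 KRAB members between 67387905 and 67729173 held 2 at the floor in S.C. 1 and 4 in S.C. 2. Their median difference from DMSO was -0.62 in S.C. 1, -4.55 in S.C. 2 and -0.27 in I.P. 1 (log2). On chromosome 10, 4 KRAB members between 81704825 and 82241280 had medians of -2.40, -4.19 and -0.48 in these libraries. On chromosome 7, 4 KRAB members between 27731389 and 27979171 had -2.74, -0.38 and -0.45. On chromosome 17, 9 KRAB members between 32765496 and 33358878, with Zfp763 and Zfp952 among them, had medians of -0.89 in S.C. 1, -0.84 in S.C. 2 and -1.28 in I.P. 1. Clusters on chromosomes 8 (69610857 to 69791178) and 9 (20345136 to 20521417), of 4 KRAB members each, had no member at the floor. Their medians after S.C. dosing were 0.05 and 0.14 on chromosome 8 and -0.01 and 0.66 on chromosome 9. In I.P. 1 the medians were -0.01 on chromosome 8 and -0.78 on chromosome 9. Neighbours that arose by duplication can be alike in sequence, and how reads were divided among them was not tested.

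At the border of the rule, Zfp777, Zfp597 and Zfp189 each had a lowest count of 50 over the 5 libraries, and Zfp653, Zfp219 and Zfp563 were just outside, with 47, 46 and 45. Zfp777 had 128 counts in S.C. 1, 38 in S.C. 2 and 118 in I.P. 1, and Zfp189 had 112, 123 and 25. Among those just outside, Zfp653 had 70, 36 and 273 counts in S.C. 1, S.C. 2 and I.P. 1, Zfp219 had 48, 9 and 121, and Zfp563 had 0, 0 and 26. Zfp563 was thus at the floor in both S.C. mice, and no gene just inside the border was.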

How the data were processed

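RNA-seq counts of TAMs from 8 mice (DMSO, 2; I.P., 4; S.C., 2) were used, with groups taken from the treatment label of each mouse. What the authors deposited are counts per gene in whole numbers, not normalized. The paper's methods name bowtie2 and RSEM with mm10, and the submitters' processing notes name TopHat2 and edgeR, so the aligner of this table is not settled; RSEM divides reads among similar genes, which bears on the fingers of this family. Whether counting used strand is not given in the sources used here.

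In R 4.3.3, genes were kept by filterByExpr (minimum count 10, minimum total 15), scaled by TMM and compared in pairs of groups by edgeR 4.0.16's two-sided quasi-likelihood test, with Benjamini-Hochberg adjustment over all genes tested. Standard errors are the log2 fold change divided by the square root of F. Log2 CPM used a prior count of 2. The members, lists and tests were chosen with earlier results of these data known. Named genes were, by rule, the 10 members with the lowest and 8 with the highest ratio of mean CPM over S.C. 1, S.C. 2 and I.P. 1 to that over DMSO, the 5 most abundant, 3 on each side of the count rule, and the listed known-role and co-repressor genes. All 199 members were found in GENCODE vM21, 5 by an older symbol. KRAB matches came from a profile search (pyhmmer 0.12.3, E up to 0.001) built from 180 sequences and C2H2 matches from a sequence pattern. Alternatives were other filters, scalings, tests and count minimums, DESeq2 1.42.0, a replicate block, and leaving out each mouse.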

Additional observations from a re-analysis of the deposited data

Results flagged for a closer look

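Among 63 genes named by rule (members, co-repressor genes and the 3 just outside the count rule), 10 had 1 I.P. mouse set apart from the other 3 by Dixon's criterion for 4 values, and in 9 of the 10 that mouse was I.P. 1. The values of I.P. 1 partly chose these genes, through the 10 lowest and 8 highest ratios. The count rule also bound I.P. 2 to I.P. 4 and not I.P. 1. A chance rate of such flags therefore does not apply, and nothing is read from these counts. In I.P. 1, Zfp429 had 2.23 CPM against 6.81 to 7.58 in the other I.P. mice, Zfp60 had 3.25 against 5.42 to 5.83, Zfp148 had 19.3 against 41.0 to 41.7, and Hdac2 had 34.7 against 77.2 to 81.3. Also in I.P. 1, Zfp945 had 24.9 CPM against 7.29 to 8.45, Zfp131 had 39.1 against 14.4 to 16.7, Zfp384 had 57.2 against 40.2 to 40.7, Zfp622 had 86.4 against 42.1 to 46.5, and Chd4 had 48.3 against 20.5 to 23.0. Zfp410, which activates Chd4, had 39.5 CPM in I.P. 2 against 28.7 to 29.9. Over all 199 members I.P. 1 stood apart for 13 (6.53%), 7 low and 6 high, and for 5.48% of the other genes, while I.P. 2, I.P. 3 and I.P. 4 did so for 1, 1 and 0 members.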

How the results depend on the processing

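The members lower in S.C. than in DMSO mice numbered 14 and were 31 by name alone (of 285 tested), 24 with a count minimum of 20, 3 with a minimum of 100 and 0 at an adjusted p under 0.05, and 4 to 60 with a mouse left out. For S.C. against I.P. these were 39, 29, 5 and 0, and 15 to 48, from 18. For I.P. against DMSO the count of 0 lower members was 1 with the replicate block and 0 to 1 with a mouse left out. Same numbers were not taken to pair the mice. The correlation of deviations was -0.129 for DMSO 1 and S.C. 1. With 2 mice per group it is mirrored for DMSO 1 and S.C. 2 (0.129), so it cannot settle pairing. The replicate block gave 17 lower and 1 higher members in S.C. against DMSO (240 and 189 of all genes tested). In S.C. against I.P. it gave 14 lower members (200 of all genes tested). The crossed pairing, added after the data were seen, gave 14 lower in S.C. against DMSO (254 of all genes tested). Scaling by library size alone moved the median of all genes in S.C. against DMSO to -0.13. It gave 16 lower and 1 higher members (429 and 196 of all genes tested).

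The median difference from DMSO was -0.45 in S.C. 1, -0.27 in S.C. 2 and -0.37 in I.P. 1 with library size alone. It was -0.35 in S.C. 1 and 0.033 in S.C. 2 with a minimum of 100 counts, -0.20 in S.C. 2 with a minimum of 20, and -0.23 in S.C. 1 and -0.14 in I.P. 1 with a mean of 50 counts over all 8 libraries. With 200 or more DMSO counts, chosen after the data were seen, it was -0.34 and 0.16 in S.C. 1 and S.C. 2. Under the reverse rule it was 0.048, 0.21 and 0.084. With either DMSO mouse left out it ran from -0.25 to -0.22 in S.C. 1, -0.11 to -0.029 in S.C. 2 and -0.27 to -0.16 in I.P. 1. Members at 0 counts in S.C. 1, S.C. 2 and I.P. 1 (10, 8 and 3) were 16, 14 and 6 with a minimum of 20 and 1, 1 and 0 with 100. There were 18, 25 and 6 at 3 or fewer counts, 24, 31 and 8 under 10% of DMSO, and 21, 28 and 7 at 3 or fewer under the rule that treats libraries alike, added after the data were seen. Where values moved, the cause was not tested beyond the genes and mice each setting removes.

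With 2 S.C. and 2 DMSO mice, and S.C. mice this far apart, differences of single members within that spread could not be resolved.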

Other observations

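Other C2H2 families behaved alike in part. Of 35 genes with a Zbtb, Zscan or Zkscan name that met the count rule, Zbtb8os encodes no zinc finger protein. Of the 35, 2 (5.71%) were at 3 or fewer counts in S.C. 1, 3 (8.57%) in S.C. 2 and 0 in I.P. 1. The members' shares were 9.05%, 12.6% and 3.02%, and those of the 9014 other genes, which include the 35, were 1.19%, 1.08% and 0.155%. Under 10% of the DMSO level were 8.57% of the 35 in S.C. 1 and 22.9% in S.C. 2. Members gave 12.1% and 15.6%, and the 9014 other genes 2.10% and 1.93%. Their interquartile ranges there were 1.92 and 2.42 (log2), against 1.61 and 1.62. In S.C. against I.P. mice, 4 of the 35 (11.4%) were called lower and 1 (2.86%) higher, against 9.05% and 3.02% of members. All genes tested gave 4.64% and 2.41%. In S.C. against DMSO mice, 1 of the 35 (2.86%) was called lower and 0 higher. The background there was 2.77% and 2.29%, so nothing is read from that 1 gene. The rule bears on the shares of the 35 as on those of the members. Zscan22, the only one called lower in S.C. against DMSO mice, had 116 and 136 counts under DMSO, 26 in I.P. 1, 106 to 141 in the other I.P. mice, and 0 and 4 after S.C. dosing. Zbtb49 had 69 and 60 counts under DMSO, 151 in I.P. 1, and 0 and 7 after S.C. dosing. Zbtb11 went the other way in 1 mouse, with 634 counts in S.C. 2 against 179 to 259 in the other 7. These 3 genes were named after their values were seen.

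Zfp36, left out by the rule, encodes tristetraprolin, which speeds the decay of inflammatory mRNAs. It had 2268 and 2279 counts under DMSO, 1895 to 2331 in I.P. 2 to I.P. 4, 7269 in I.P. 1, and 8247 and 8061 after S.C. dosing. The 3 libraries in which members dropped out were thus the 3 in which Zfp36 was highest. Of the 11680 genes tested in S.C. against DMSO, 5.02% were higher in these 3 libraries without overlap. Zfp36l1 had 535 and 437 counts after S.C. dosing and 1467 in I.P. 1, against 369 and 678 under DMSO. Zfp36l2 had 1847 and 748 after S.C. dosing and 2271 in I.P. 1, against 705 and 825. The log2 fold change of Zfp36 in S.C. against DMSO was 1.98 ± 0.30 (SE, adjusted p = 0.652, edgeR quasi-likelihood test). The part of Zfp36 in the counts of the members was not tested.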
